A study of Mus musculus with 6 samples.

Results

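The genes described are 10 members of the WNT ligand and receptor families, 7 ligands (*Wnt2*, *Wnt2b*, *Wnt4*, *Wnt5a*, *Wnt5b*, *Wnt9a* and *Wnt11*) and 3 receptors (*Fzd1*, *Fzd2* and *Ror2*), chosen by gene symbol from the 20327 symbols in the tag counts. All 10 were found, and 6 of them passed the filter on low genes. Colon stromal cells came from male C57BL/6 mice, 9 to 15 weeks old, that carry an *Il11-Egfp* reporter on a bacterial artificial chromosome and were taken from 1 selected transgenic line. The mice drank 1.5% dextran sulfate sodium (DSS), which injures the colon epithelium, for 5 days, and cells were sorted on day 7. Live cells negative for Ter119, CD45, CD31 and EpCAM were divided into EGFP-Positive cells, called IL-11+ fibroblasts, and EGFP-Negative cells, called IL-11- fibroblasts (n = 3 libraries per group). Both groups carried the reporter and received DSS, and they differ in the sort. The 5′Tag-seq libraries summed to 1057170, 1078179 and 1169817 tags for IL-11- and to 1046538, 1022851 and 1049048 for IL-11+ (replicates 1, 2 and 3). *Il11* itself, the gene of the sort, counted 28 to 89 tags in the EGFP-Negative and 732 to 2658 in the EGFP-Positive libraries. Tags of single libraries are given in the order of replicates 1, 2 and 3.

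WNT proteins are secreted, lipid-modified ligands that bind Frizzled receptors. With LRP co-receptors they stabilize β-catenin, which maintains stem cells and proliferation in the colonic crypt. Other WNTs, *Wnt5a* among them, act largely without β-catenin, through Frizzled and ROR receptors, on cell polarity and movement. In the intestine, stromal cells around the crypts are a known source of WNT ligands and of secreted WNT inhibitors.

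The ligand *Wnt5a* and the receptor *Fzd1* were both higher in IL-11+ fibroblasts than in the EGFP-Negative cells, by 2.91-fold and 2.74-fold. The other 4 members that passed the filter, *Wnt2b*, *Wnt4*, *Fzd2* and *Ror2*, were not called in either direction. A gene was called when its Benjamini-Hochberg adjusted p over 9334 tested genes was under 0.05 and its fold change over 2, in edgeR's quasi-likelihood test. Thus 2 of the 6 tested members were called higher, where 3.44% of all tested genes were, and 0 were called lower, where 6.37% of all tested genes were. At an unadjusted p under 0.05, 2 members were lower (*Wnt2b* and *Fzd2*), where 1355 of all 9334 tested genes were lower and 1135 higher. DESeq2 called 0 members lower, where it called 483 of all tested genes lower and 284 higher. The same totals over all tested genes belong beside the unadjusted and DESeq2 counts of the lists below. The 6 tested members had a median log2 fold change of 0.53, against -0.01 for all tested genes, and without a filter the 10 members had 0.18, against -0.04 for all genes. Since the members were chosen with results of these libraries known, the counts and the medians are descriptions. These are bulk samples, so that fewer cells of a type and less RNA per cell cannot be told apart.

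**Figure D1:**
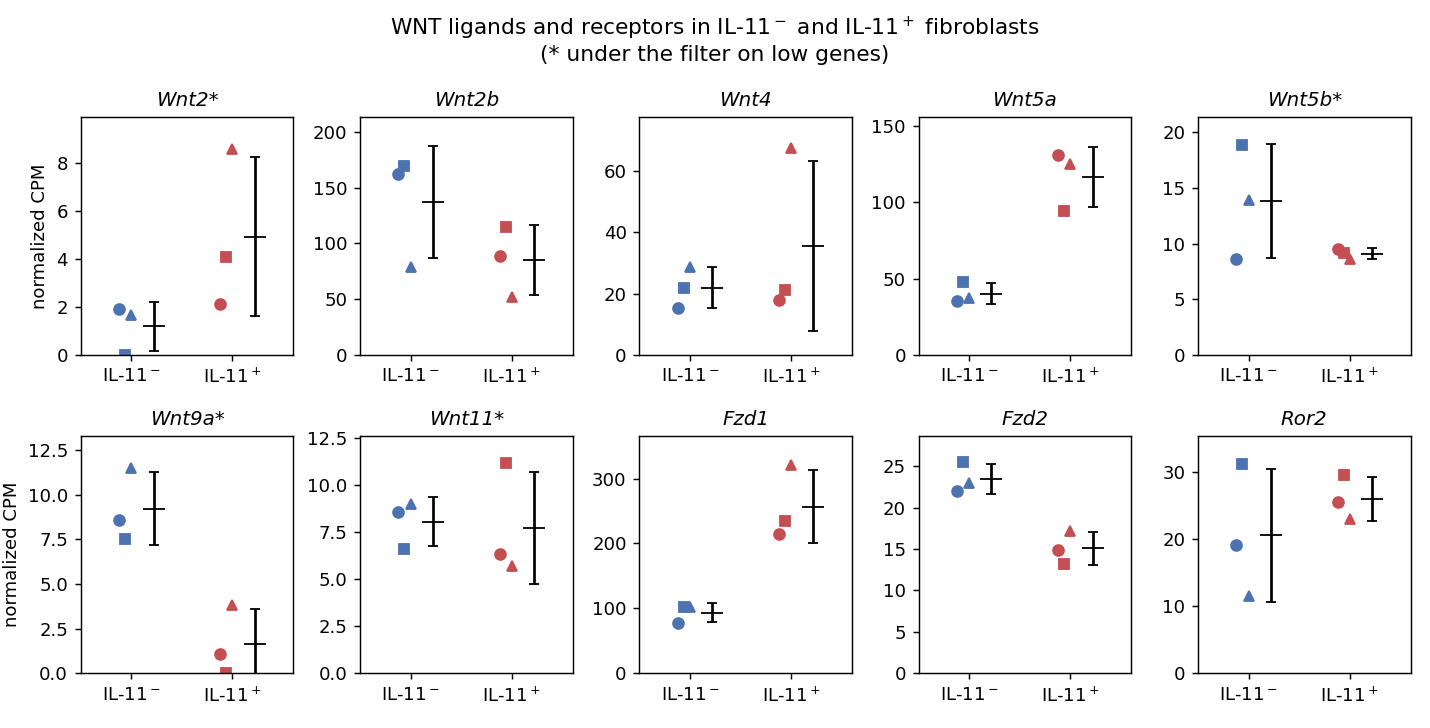
Normalized CPM (tags scaled by TMM to a common library size) of the 10 members in IL-11- (blue) and IL-11+ (red) libraries, with circles, squares and triangles for replicates 1, 2 and 3 and a black bar for the mean ± SD (n = 3). *Wnt5a* and *Fzd1* are higher in all IL-11+ libraries, whereas *Fzd2* is lower in all of them and the libraries of *Wnt2b*, *Wnt4* and *Ror2* overlap.

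*Wnt5a*, a ligand of β-catenin-independent signaling, lies on the plus strand of chromosome 14 (chr14:28504750-28527448 in GRCm38) and has 5 exons. It counted 37, 51 and 45 tags in the IL-11- and 124, 93 and 131 in the IL-11+ group. The lowest IL-11+ library, replicate 2, stood above the highest IL-11- library, which was also replicate 2. Normalized CPM rose from 40.1 ± 6.92 to 117 ± 19.8 (SD, n = 3), and the log2 fold change was 1.54 (SE 0.203, 95% interval 1.12 to 1.97, edgeR adjusted p = 2.62e-05). Over all alternatives the log2 fold change stayed between 1.46 and 1.70, and the highest adjusted p was 0.000328.

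*Wnt2b*, a ligand of the β-catenin pathway that intestinal stromal cells are known to express, lies on the minus strand of chromosome 3 (chr3:104945272-104961921). It counted 170, 180 and 96 tags in the IL-11- and 84, 113 and 54 in the IL-11+ group. Replicate 3 was the lowest library of both groups, and the groups overlapped. Within each replicate number the IL-11+ library was lower, by log2 ratios of -0.86, -0.56 and -0.60. Without regard to the pairing, 137 ± 50.4 stood against 85.1 ± 31.8 normalized CPM (SD, n = 3), and the log2 fold change was -0.68 (SE 0.276, 95% interval -1.26 to -0.10, edgeR adjusted p = 0.110). With the replicates paired as a block, the edgeR adjusted p was 0.0017 (0.0017 to 0.395 over all alternatives) and the interval -1.02 to -0.34, and the fold change was still under the threshold of 2.

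*Wnt4*, on the plus strand of chromosome 4 (chr4:137277489-137299726), counted 16, 23 and 35 tags in the IL-11- and 17, 21 and 71 in the IL-11+ group. Only IL-11+ replicate 3 stood above the other libraries. The log2 fold change was 0.71 (SE 0.408, edgeR adjusted p = 0.290), and it was -0.16 without IL-11+ replicate 3 (adjusted p = 0.837, with 0.0918 to 0.837 over all alternatives).

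The other 4 ligands had too few tags to pass the filter, which asks for 10 or more tags in 3 or more libraries, and their values come from a fit without a filter. *Wnt9a* (chr11:59306928-59333552, plus strand) counted 9, 8 and 14 tags in the IL-11- and 1, 0 and 4 in the IL-11+ group. Every IL-11+ library was below every IL-11- library. Its summed tags, 31 in IL-11- and 5 in IL-11+ libraries, gave a ratio of 0.180 after scaling, with a 95% exact interval of 0.0547 to 0.468 that covers counting error only. In the fit without a filter, *Wnt9a* was called lower (log2 fold change -2.35, SE 0.694, edgeR adjusted p = 0.0111), 1 member of 10, where 3.77% of all genes were called lower. The call depended on single libraries. Leaving out IL-11- replicate 3 gave an adjusted p of 0.259 in edgeR's test (log2 fold change -2.16). Leaving out IL-11+ replicate 1 gave 0.0513 (-2.15), and leaving out IL-11+ replicate 2 gave 0.124 (-1.81). DESeq2 gave 0.127 (log2 fold change -2.45), and the adjusted p ranged from 0.0021 to 0.259 over all alternatives. Without IL-11+ replicate 3 the log2 fold change was -3.86.

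*Wnt2* (chr6:17988940-18030585, minus strand) counted 2, 0 and 2 tags in the IL-11- and 2, 4 and 9 in the IL-11+ group. The floor of 3 tags stands at 2.46 to 3.18 normalized CPM, so all IL-11- libraries and IL-11+ replicate 1 were under it. The ratio of summed tags was 4.19 (95% exact interval 1.33 to 17.3, counting error only), but the edgeR fit without a filter did not call the gene (log2 fold change 1.99, adjusted p = 0.188). Without IL-11+ replicate 3, which held most tags of its group, these were 1.32 and 0.701 (0.119 to 0.701 over all alternatives). *Wnt5b*, a close relative of *Wnt5a*, counted 9, 20 and 17 tags in the IL-11- and 9, 9 and 9 in the IL-11+ group (chr6:119432531-119544347, minus strand). Its ratio of summed tags was 0.656, with an interval of 0.392 to 1.08 that includes no change (fit without a filter, edgeR adjusted p = 0.584). *Wnt11* (chr7:98835112-98855195, plus strand), another ligand of β-catenin-independent signaling, counted 9, 7 and 11 tags in the IL-11- and 6, 11 and 6 in the IL-11+ group. Its ratio was 0.952 (0.521 to 1.72; edgeR adjusted p = 0.979), and a change within that range was not detectable at this depth. Among the 12 WNT ligand genes outside the members, 6 were in the tag counts and 0 passed the filter. *Wnt10b* had the most tags of these, at most 8 in a library.

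Of the receptors, *Fzd1* is a Frizzled encoded by 1 exon on the minus strand of chromosome 5 (chr5:4753839-4758035). It counted 81, 108 and 124 tags in the IL-11- and 203, 231 and 336 in the IL-11+ group. Every IL-11+ library stood above every IL-11- library, and replicate 3 was the highest of both groups. Normalized CPM rose from 93.6 ± 14.1 to 257 ± 56.0 (SD, n = 3), with a log2 fold change of 1.45 (SE 0.191, 95% interval 1.05 to 1.85, edgeR adjusted p = 2.53e-05). Over all alternatives it stayed between 1.26 and 1.57.

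*Fzd2*, also a Frizzled of 1 exon (chr11:102604396-102608058, plus strand), counted 23, 27 and 28 tags in the IL-11- and 14, 13 and 18 in the IL-11+ group. The IL-11+ libraries were below the IL-11- libraries without overlap, at 15.1 ± 1.99 against 23.5 ± 1.79 normalized CPM (SD, n = 3). The difference was not called (log2 fold change -0.63, SE 0.299, 95% interval -1.26 to -0.003, edgeR adjusted p = 0.184). Groups without overlap were found with IL-11+ above for 14.5% and below for 16.7% of all tested genes, and for 2 and 1 of the 6 tested members. *Ror2*, a receptor of *Wnt5a* on chromosome 13 (chr13:53109312-53286124, minus strand), counted 20, 33 and 14 tags in the IL-11- and 24, 29 and 24 in the IL-11+ group. The groups overlapped, and the log2 fold change of 0.35 had a 95% interval of -0.36 to 1.05 (edgeR adjusted p = 0.562).

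Of the 10 tested receptors and co-receptors outside the members, 0 were called higher and 1, *Fzd4*, was called lower, where 3.44% and 6.37% of all tested genes were, with a median log2 fold change of -0.02 (4 of the 10 had an unadjusted p under 0.05, and DESeq2 called 1). *Fzd4*, a Frizzled that also binds the ligand norrin, counted 27, 33 and 44 tags in the IL-11- and 7, 15 and 12 in the IL-11+ group. The groups did not overlap, and the log2 fold change was -1.44 (SE 0.325, edgeR adjusted p = 0.00436). *Fzd7* had an adjusted p of 0.0443 (0.0184 to 0.171 over all alternatives) with a log2 fold change of -0.75, under the fold threshold. *Ptk7*, a co-receptor of planar polarity signaling, had 0.85 with an adjusted p of 0.0175 from the same edgeR test (0.00676 to 0.0842), also under that threshold. The co-receptors *Lrp6* (-0.03, SE 0.159) and *Lrp5* (-0.01, SE 0.329) and the receptor *Ror1* (0.02, SE 0.182) had log2 fold changes near 0. The receptor *Ryk* was lower in all IL-11+ libraries but not called (-0.48, SE 0.198, edgeR adjusted p = 0.115).

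**Figure D2:**
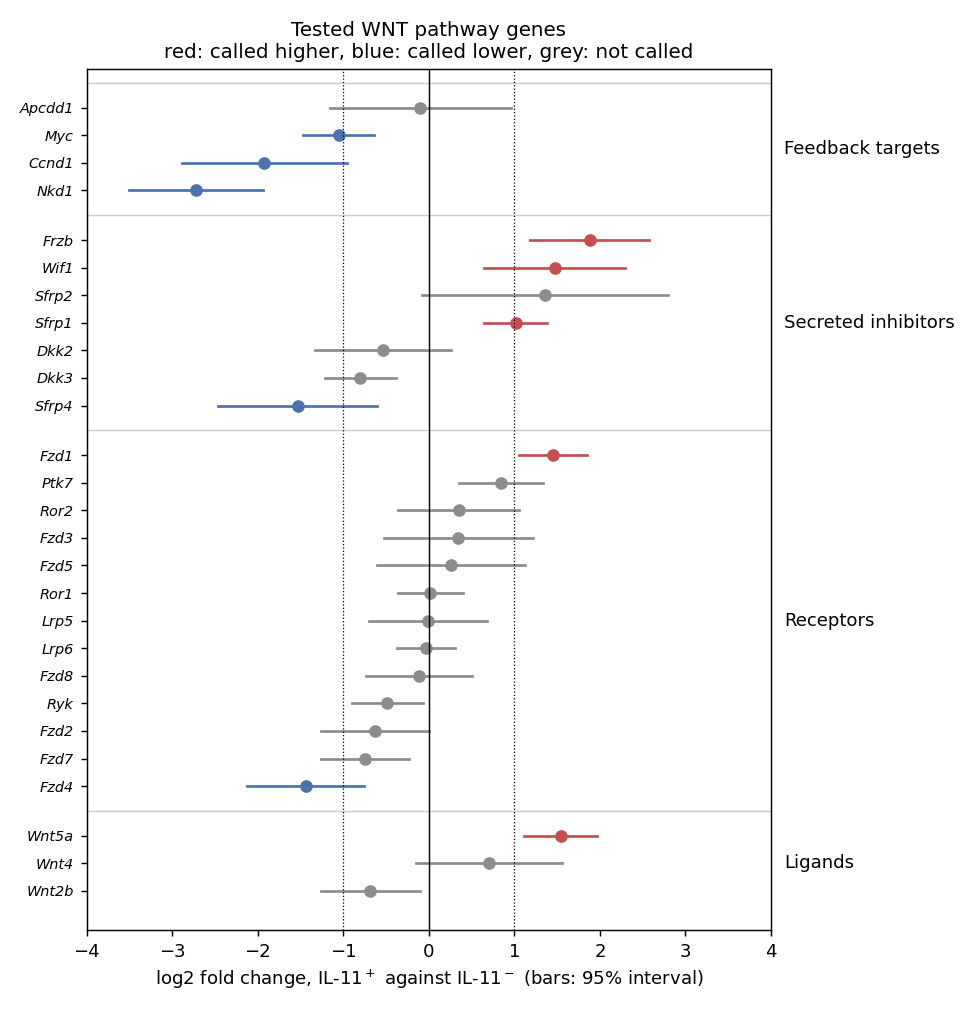
Log2 fold change of IL-11+ against IL-11- fibroblasts for tested WNT ligands, receptors, secreted inhibitors and β-catenin feedback targets, with bars for the 95% interval (n = 3 libraries per group) and dotted lines at the fold threshold of 2. *Fzd1* and *Fzd4* stand at 1.45 and -1.44 among the receptors, and *Nkd1* is at -2.72 among the feedback targets. *Wif1*, which is in both lists, is drawn with the inhibitors.

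Around the members, 111 other genes of the WNT pathway were listed, of which 95 were in the tag counts and 70 were tested. Among these, 3 were called higher and 7 lower, where 3.44% and 6.37% of all tested genes were, with a median log2 fold change of 0.03. None of 21 tested genes of the intracellular β-catenin pathway was called (3 at an unadjusted p under 0.05, 0 in DESeq2), and neither was any of 8 genes of ligand lipidation and secretion (3 and 0).

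Secreted inhibitors were called in both directions, 3 of 7 tested genes higher and 1 lower, where 3.44% and 6.37% of all tested genes were. *Frzb*, which encodes a decoy receptor for WNTs, counted 10, 12 and 16 tags in the IL-11- and 53, 45 and 27 in the IL-11+ group, and its log2 fold change was 1.88 (SE 0.332, edgeR adjusted p = 0.000527). *Sfrp1*, a relative of *Frzb*, rose from 1119 ± 119 to 2259 ± 303 normalized CPM (SD, n = 3; log2 fold change 1.01, SE 0.174). It stood at the fold threshold, and was under it when only library size was scaled for (0.93), without IL-11- replicate 1 (0.95) and without IL-11+ replicate 2 (0.90). *Wif1*, which binds WNTs directly, counted 4, 14 and 14 tags in the IL-11- and 16, 31 and 33 in the IL-11+ group (1.47, SE 0.393, edgeR adjusted p = 0.0146). It lost its call without IL-11- replicate 1, IL-11+ replicate 2 or IL-11+ replicate 3, with adjusted p of 0.0735, 0.0699 and 0.0546 in edgeR's test (0.000719 to 0.0735 over all alternatives). The log2 fold changes of *Wif1* were then 1.11, 1.34 and 1.33. *Sfrp4* was lower, at 60, 46 and 44 tags in the IL-11- and 3, 9 and 35 in the IL-11+ group (-1.53, SE 0.441, edgeR adjusted p = 0.0226). IL-11+ replicate 3 stood apart, and without it the log2 fold change of *Sfrp4* was -2.85. The call was lost without IL-11- replicate 1 (-1.34) or 2 (-1.56), without IL-11+ replicate 1 (-1.07) or 2 (-1.26), and in DESeq2 (-1.57). *Sfrp2* counted 12, 11 and 57 tags in the IL-11- and 9, 17 and 159 in the IL-11+ group, so that replicate 3 was the highest of both. Its log2 fold change was 1.36 (SE 0.686, edgeR adjusted p = 0.219), and -0.80 without IL-11+ replicate 3. It was called higher with the replicate block (edgeR adjusted p = 0.00153) and without a filter (2.88e-06), with a highest adjusted p of 0.639 in DESeq2. *Dkk3* had a log2 fold change of -0.80 (SE 0.199), under the fold threshold. 2 inhibitors under the filter were called lower in the fit without it, where 3.77% of all genes were. *Sostdc1* counted 16, 6 and 9 tags in the IL-11- and 0, 0 and 3 in the IL-11+ group (log2 fold change -3.04, edgeR adjusted p = 0.00167). It lost its call in DESeq2 (-3.22, adjusted p 0.0658). In edgeR's test it lost the call without IL-11- replicate 1 (-2.54, adjusted p 0.0851) or 3 (-3.20, adjusted p 0.155). *Sfrp5* counted 8, 5 and 1 against 0 tags in all IL-11+ libraries (edgeR adjusted p = 0.012), and lost its call with the replicate block (0.0602), in DESeq2 (0.0873), without IL-11+ replicate 2 (0.0518) and without IL-11- replicate 1, 2 or 3 (0.194, 0.0527 and 0.0865).

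Feedback targets, which β-catenin signaling is known to induce, were called lower for *Nkd1*, *Ccnd1* and *Myc* and higher for *Wif1*, among 5 tested genes. Of all tested genes, 6.37% were called lower and 3.44% higher. In this list 4 had an unadjusted p under 0.05, and DESeq2 called 4. *Nkd1* and *Ccnd1* passed the filter through the IL-11- libraries alone, so the share called in this list depends on the filter. In the fit without a filter the same 3 were called lower among the 12 genes of the list in the tag counts (15 were listed), where 3.77% of all genes were. *Wif1* was called higher in that fit, where 427 of all 20327 genes were. *Nkd1*, an inhibitor of Dishevelled, counted 30, 31 and 37 tags in the IL-11- and 3, 4 and 6 in the IL-11+ group, without overlap. Its log2 fold change was -2.72 (SE 0.371, edgeR adjusted p = 3.85e-05), between -2.98 and -2.55 over all alternatives. *Ccnd1*, which encodes cyclin D1, counted 15, 27 and 18 tags in the IL-11- and 2, 6 and 6 in the IL-11+ group (-1.92, SE 0.458, edgeR adjusted p = 0.00651). Without IL-11- replicate 2 its log2 fold change was -1.60 and its adjusted p 0.0535 in edgeR's test (0.00118 to 0.0535 over all alternatives). *Myc*, a transcription factor with many other inputs, went from 95.2 ± 15.6 to 45.8 ± 4.47 normalized CPM (SD, n = 3; log2 fold change -1.06, SE 0.198). It fell under the fold threshold without IL-11- replicate 1 (-0.95) or IL-11+ replicate 3 (-0.98). *Axin2*, a widely used readout of the pathway, was under the filter, at 5, 12 and 10 tags in the IL-11- and 5, 3 and 6 in the IL-11+ group. The fit without a filter did not call *Axin2* (log2 fold change -0.73, SE 0.572, edgeR adjusted p = 0.595). *Apcdd1* counted 12, 12 and 20 tags in the IL-11- and 5, 5 and 27 in the IL-11+ group and was not called (-0.10, SE 0.504). IL-11+ replicate 3 stood apart, and without it the log2 fold change was -1.32 (edgeR adjusted p = 0.0901, with 0.0901 to 0.970 over all alternatives).

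Of 17 tested genes of planar polarity and other β-catenin-independent signaling, 0 were called higher and 2 were called lower, where 3.44% and 6.37% of all tested genes were. In this list 5 had an unadjusted p under 0.05, and DESeq2 called 1. *Daam1*, which links Dishevelled to actin, had a log2 fold change of -1.07 (SE 0.222), and it fell under the fold threshold without IL-11- replicate 3 (-0.97) or IL-11+ replicate 2 (-0.93). *Nfatc2*, a calcium-dependent transcription factor that passed the filter through the IL-11- libraries alone, counted 23, 18 and 20 tags in the IL-11- and 7, 8 and 7 in the IL-11+ group (-1.30, SE 0.373, edgeR adjusted p = 0.022). It lost its call in DESeq2 (-1.30) and without IL-11- replicate 1 (-1.16) or any of IL-11+ replicates 1, 2 and 3 (-1.30, -1.37 and -1.23). *Prickle2* stood just under the fold threshold (0.97, SE 0.206), and over it without a filter (1.02) and without IL-11- replicate 1 (1.08), IL-11+ replicate 2 (1.04) or IL-11+ replicate 3 (1.14). *Daam2* (-0.98, SE 0.412, edgeR adjusted p = 0.127) was called lower with the replicate block (0.0338) and without IL-11+ replicate 3 (log2 fold change -1.91, adjusted p 0.00379), and its highest adjusted p was 0.378.

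R-spondins strengthen WNT signals through LGR receptors. None of the 3 tested genes of their list was called (1 at an unadjusted p under 0.05, 0 in DESeq2). The receptor *Lgr4* (-1.32, SE 0.476, edgeR adjusted p = 0.0717) was called lower with the replicate block (0.0165), without a filter (0.0255), without IL-11- replicate 3 (0.0176) and without IL-11+ replicate 1 (0.0235), and its highest adjusted p was 0.314. The R-spondin *Rspo3* had a log2 fold change of -0.24 (SE 0.215).

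Markers of other stromal cells moved with the sort. Beside the counts that follow, 3.44% of all tested genes were called higher and 6.37% lower. All 7 smooth muscle markers were called lower in IL-11+ fibroblasts, and *Myh11* was the most abundant of them. Their summed level was 2569, 3214 and 4023 normalized CPM in IL-11- and 96.4, 155 and 335 in IL-11+ replicates 1, 2 and 3. Of 7 pericyte markers 4 were lower, led by *Rgs5*, with sums of 2681, 2289 and 2105 against 1076, 903 and 803. The pericyte markers *Abcc9* and *Kcnj8* went the other way, under the fold threshold (log2 fold changes 0.66 and 0.71, edgeR adjusted p of 0.0167 and 0.0394). All 3 markers of interstitial cells of Cajal were lower, led by *Ano1*, with sums of 271, 168 and 258 against 21.2, 20.3 and 50.5. In these lists *Cnn1* (smooth muscle), *Notch3* (pericyte) and *Kit* (Cajal) passed the filter through the IL-11- libraries alone. The counts of lower markers therefore depend on the filter. Of 9 fibroblast markers, led by *Dcn*, 2 were higher (*Col3a1* and *Pdpn*), with sums of 22122, 22107 and 24635 against 42226, 33957 and 30313. The fibroblast marker *Lum* was lower in all IL-11+ libraries, under the fold threshold (-0.64, SE 0.201, edgeR adjusted p = 0.0378), and *Vim* was not called (-0.27, SE 0.185). Of 5 tested telocyte markers, led by *Bmp5*, 2 were higher (*Bmp5* and *Bmp7*), with sums of 466, 516 and 331 against 879, 729 and 613. The telocyte markers *F3* (log2 fold change 0.18, SE 0.222), *Sox6* (0.35, SE 0.339) and *Ednrb* (-0.23, SE 0.226) were not called. *Foxl1*, also of this list, was under the filter. Markers of endothelium, immune cells, epithelium and mesothelium summed to at most 15.6 normalized CPM in any library, and none of them passed the filter. Of the defining markers, *Pecam1* had 1 tag in 1 IL-11- library, *Epcam* at most 1 tag and *Ptprc* at most 7 tags in a library. Erythroid markers, led by *Hbb-bs*, summed to 77.3, 0 and 233 in IL-11- and 13.8, 2.03 and 14.3 in IL-11+ libraries, although the gate leaves out Ter119+ cells. The part of these cell types in the values of the WNT genes was not tested.

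The sequence before the annotated start is shown for *Fzd1*, the called receptor, and for *Ror2* and *Wnt11*, genes of β-catenin-independent signaling that hold a searched motif. The tag counts are per gene symbol, so the starts used in these cells were not seen. RefSeq promoters (GRCm38.p6) were matched for 8 of the 10 members (not *Wnt5a* and *Fzd2*), with 11 entries, and the 250 bases before the start were searched on both strands for the AP-1 motif TGANTCA, the STAT motif TTCNNNGAA and the TCF/LEF motif CTTTGAT. Of the 11 entries, 2 held the AP-1, 1 the STAT and 2 the TCF/LEF motif, where 6.75%, 7.02% and 3.21% of 32851 promoters did. Capitals mark a match, which is a description of the letters and not a site. *Fzd1* (chr5:4758217-4758466, minus strand, 51.2% G and C) held none of the 3 motifs in this window. The window lies before the RefSeq start and does not adjoin the GENCODE position of *Fzd1* given above (chr5:4753839-4758035). *Ror2* (chr13:53286125-53286374, minus strand, 73.2%) held the AP-1 motif 90 bases before the start. *Wnt11* (chr7:98834862-98835111, plus strand, 70.8%) held the TCF/LEF motif on the opposite strand 51 bases before the start, and its other entry held none of the 3.
Fzd1: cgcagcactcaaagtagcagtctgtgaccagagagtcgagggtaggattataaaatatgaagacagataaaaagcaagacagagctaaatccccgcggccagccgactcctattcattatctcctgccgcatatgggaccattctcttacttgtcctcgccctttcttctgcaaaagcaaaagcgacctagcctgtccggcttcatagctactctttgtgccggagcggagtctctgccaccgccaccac
Ror2: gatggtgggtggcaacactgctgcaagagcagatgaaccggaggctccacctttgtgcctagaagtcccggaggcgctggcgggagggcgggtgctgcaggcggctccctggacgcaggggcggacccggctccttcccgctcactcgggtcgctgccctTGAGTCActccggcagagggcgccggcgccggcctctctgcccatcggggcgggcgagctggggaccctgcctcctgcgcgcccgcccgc
Wnt11: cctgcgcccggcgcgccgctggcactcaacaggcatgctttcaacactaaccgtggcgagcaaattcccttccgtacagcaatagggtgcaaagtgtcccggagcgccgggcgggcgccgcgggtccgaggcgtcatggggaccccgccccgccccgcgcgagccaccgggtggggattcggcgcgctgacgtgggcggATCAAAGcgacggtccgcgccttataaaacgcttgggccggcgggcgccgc
The other matches were in the 3 entries of *Wnt5b*, with 1 motif each.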

How the data were processed

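The deposited values are tag counts per gene symbol, without normalization. The authors used Cutadapt 1.18 for trimming and Bowtie2 2.2.5 for mapping to mm10 RefSeq transcripts, on 1 strand, and counted tags per gene. How tags that match several genes were treated is not given in the sources used here. In GENCODE mouse release M21 (GRCm38), which gave positions and exons, 0% of the 50-nt windows in the first 300 nt of the member transcripts occur in another gene.

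Genes with 10 or more tags in 3 or more of the 6 libraries were tested in R 4.3.3 with edgeR 4.0.16 (TMM scaling, quasi-likelihood test, Benjamini-Hochberg adjustment over all tested genes). The study's methods give the 2 thresholds and the 10 tags but no number of libraries. As worded they leave out genes at 10 tags or above, which was read here as genes below 10. Normalized CPM are counts divided by TMM-scaled totals of the tested genes. Intervals are 95%. The fit was checked on counts simulated from its own model, with the filter, without pairing and with changes well over the fold threshold. That check does not cover the fits without a filter, the block or calls near the threshold. PCR copies of a molecule are not told apart. The exact intervals of summed tags and the floor of 3 tags cover counting error only.

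Replicate numbers come from the sample labels, and the methods name 3 mice. Libraries with the same number departed together from the means of their groups (r of 0.231, 0.209 and 0.270 over 5064 genes averaging 30 tags or more, where genes are not independent replicates). The numbers were therefore taken as pairs in fits with a replicate block. The main fit did not pair them, so its calls and intervals leave the pairing out. Alternatives were RLE factors, iterative TMM, library-size scaling, DESeq2 1.42.0, other filters, the block, the adjusted p alone and each library left out.

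The members and lists were chosen with earlier results of these data known. Genes named are the members, the called genes of the WNT lists, up to 4 others per list with the most tags, and *Il11*. A marker said to lead its list is the most abundant of it, with *Col3a1* and *Pdpn* as called genes and *Pecam1*, *Epcam* and *Ptprc* as defining markers. *Ptk7*, *Lrp5*, *Prickle2*, *Daam2*, *Sostdc1*, *Sfrp5*, *Abcc9*, *Kcnj8*, *Lum* and *Vim* were chosen after their values were seen. The same holds for the markers *Cnn1*, *Notch3*, *Kit*, *Bmp7*, *F3*, *Sox6*, *Ednrb* and *Foxl1*. Amino acid sequences were not used here. The result of 1 marker list is not reported here.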

Additional observations from a re-analysis of the deposited data

How the results depend on the processing

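Over all alternatives computed, 77 of 84 counts of calls stayed within 1.5 times their main value, and 437 of 483 values of single genes kept their side of the threshold. These are the WNT genes named and *Il11*, and some of them were added to the set after their values were seen. The members called higher were 2 in every alternative. The members called lower went from 0 to 1 without a filter and with 10 tags in at least 1 library, because *Wnt9a* was then tested. Other WNT pathway genes called higher went from 3 to 5 without a filter and to 5 with the adjusted p alone, those called lower went from 7 to 10 without a filter and to 9 with the adjusted p alone, and all genes called higher went from 321 to 638 with the adjusted p alone. Leaving out 1 library in turn gave 4 to 7 other WNT pathway genes called lower, where all libraries gave 7. The lowest count came without IL-11- replicate 1 and without IL-11+ replicate 2, and fewer samples enter these fits. With the replicate block, 337 genes were higher and 648 lower, 4 and 9 of them other WNT pathway genes. The block changed no other call of a named gene than those of *Sfrp2*, *Lgr4*, *Daam2* and, in the fit without a filter, *Sfrp5*. No called value changed direction, whereas *Wnt4*, *Wnt11*, *Sfrp2*, *Lrp5*, *Lrp6*, *Ror1* and *Apcdd1*, which were not called, took both signs. At 1022851 to 1169817 tags per library, *Wnt2*, *Wnt5b*, *Wnt9a* and *Wnt11* had too few tags to pass the filter.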
